A study of Homo sapiens with 9 samples.

Results

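The RNA targets of FAM120A were compared between a human embryonic kidney line and the erythroleukaemia line K562 with 5 antibody-barcode eCLIP (ABC) libraries, 2 from the kidney line and 3 from K562 cells, out of 54 libraries of the series with called peaks. They are all the FAM120A libraries of the 10plex experiments, in which 10 barcoded antibodies (DDX3, EIF3G, FAM120A, IGF2BP2, LIN28B, PRPF8, PUM2, RBFOX2, SF3B4 and ZC3H11A) shared 1 tube per replicate, called a pool here. The DNA barcode of an antibody is ligated to the RNA fragments held by its RNA-binding protein (RBP), so that each read names the antibody it came from. Cells of both lines were crosslinked with UV light, and the labels give no treatment, transgene or deletion. The kidney line is HEK293T or HEK293 in the labels and HEK293XT in the methods, and is called HEK293 here. The 45 libraries of the other 9 RBPs from the same pools were used as the control for the level of each mRNA. Nothing states that replicates came from separate cultures, so that p-values may measure technical spread, and each line was prepared in pools of its own, so that line and preparation cannot be told apart.

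FAM120A is an RNA-binding scaffold protein that brings Src family kinases to phosphatidylinositol 3-kinase when cells are under oxidative stress, and it is known to bind mRNAs in their 3′ untranslated regions (3′ UTRs). A 3′ UTR carries most of the sites through which microRNAs and RBPs set the stability, location and translation of an mRNA. CLIP reads at a site rise with the amount of the mRNA as well as with how much of it the protein holds, and the reads of other RBPs on the same 3′ UTR follow the amount of mRNA without FAM120A.

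CLIPper peaks of the FAM120A libraries, after merging, numbered 104876 and 122167 in HEK293 replicates 1 and 2, and 50682, 79886 and 45702 in K562 replicates 1, 2 and 3. This gave 403313 FAM120A peaks, against 1536663 of the other 9 RBPs together. The reads in these peaks summed to 1983309 and 3105021 in HEK293 and to 938977, 2215618 and 823520 in K562 cells. FAM120A took 25.0% and 24.6% of the usable reads of the HEK293 pools and 30.2% and 36.8% of those of K562 replicates 1 and 2. The cell lines were checked with markers over the reads of all 10 RBPs in exons, since a label of the HEK293 pools names K562. Erythroid markers such as the embryonic and fetal globins summed to 4.16 to 5.79 reads per 1000000 (RPM) in the HEK293 pools and to 1558 to 2071 in the K562 pools, with 17 of 19 markers higher in every K562 pool. Of 7 HEK293 markers, 5 were higher in both HEK293 pools, SHOX2 was higher in the K562 pools, and PAX2 was near 0 throughout.

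To show the bound RNA itself, 30 nt of the 3′ UTR are given for the sites with the most FAM120A reads in the most strongly bound mRNAs and in mRNAs that differed between the lines. They are transcript-strand sequences around a peak centre in GRCh38, 5′ to 3′, with runs of at least 5 equal bases in capitals. The DDX6 and PEX26 sites are from the highest peaks of all 5 libraries. Those of SCD, NUCKS1, CALU, IGF2BP1, NME4 and LSM14B are from the highest peak of K562 replicate 2. Those of FAM120A, PAPOLA, PDIA6 and RPS23 are from the highest peak of HEK293 replicate 2. For these mRNAs the highest peak of another library may lie elsewhere. The first 5 sites lay in 3′ UTRs bound in every library.
DDX6, chr11:118748879-118748908, minus strand: ttcagaatgagatgggagcatctttccttt
SCD, chr10:100364178-100364207, plus strand: ttggtttgctagtatcttgggtgtattctc
NUCKS1, chr1:205714195-205714224, minus strand: ccctaaaataacatgtatAAAAAcccctga
CALU, chr7:128769577-128769606, plus strand: aagaaatgttcaggagagaggaaagAAAAA
IGF2BP1, chr17:49049519-49049548, plus strand: tgagaatgagtgggaatccgggacacctgg
The next 4 lay in 3′ UTRs with a higher ratio of FAM120A to the other RBPs in HEK293 cells.
FAM120A, chr9:93565687-93565716, plus strand: ttgatcttAAAAAAAAAAAAAccaCCCCCC
PAPOLA, chr14:96566706-96566735, plus strand: ttccaccaccgaagAAAAAAgatggtcata
PDIA6, chr2:10783653-10783682, minus strand: gaaaccgggctcagtgagaactgatttcct
RPS23, chr5:82274563-82274592, minus strand: ctccccgggcggtggggcccttgtgaccgc
The last 3 lay in 3′ UTRs with a lower ratio in HEK293 cells.
NME4, chr16:400374-400403, plus strand: acgcaggaccaactacctccgtcagcaaga
PEX26, chr22:18090769-18090798, plus strand: tgggagggtGGGGGagaggggtggaatgga
LSM14B, chr20:62134691-62134720, plus strand: tttcccatggatcatgttgtataagtgaac

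FAM120A bound 3′ UTRs in both lines. Of the reads in its peaks, 72.8% and 72.6% fell in 3′ UTRs in HEK293 and 62.2%, 73.4% and 67.3% in K562 cells. IGF2BP2, the next RBP by this share, had 23.1% to 39.0%, and the splicing factor SF3B4 had 1.77% to 3.59%. Within a 3′ UTR, the median FAM120A peak centre lay 44.0% to 45.2% of the way along in all 5 libraries.

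An external background, RNA-seq by the methods, was used next, and peaks counted as enriched where their P against it was below 0.001 and their fold above 8. This gave 56957 and 69398 peaks in HEK293 and 21941, 32328 and 20804 in K562 cells, of which 50.5% and 42.0% against 72.9%, 78.4% and 77.5% lay in 3′ UTRs. The HEK293 libraries were both below all K562 libraries, with a difference of -30.0 percentage points and an exact two-sided permutation p of 0.2, the smallest that 2 against 3 libraries allow. Introns held 39.9% and 48.7% of the enriched peaks in HEK293 against 5.13% to 7.18% in K562 cells, and coding sequence held 4.27% and 4.15% against 9.05% to 11.4%. The background moved with the line, as it held at most 1 read at 17.5% and 22.9% of the FAM120A peaks in HEK293 and at 97.5% to 97.8% in K562 cells, and its part in the difference was not tested.

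The lines did not separate over the complement control, for which the authors summed the reads of the 9 remaining antibodies in a pool. With the same limits, 17095 and 18046 peaks were enriched in HEK293 and 8274, 12189 and 7416 in K562 cells. Of these, 94.8% and 94.3% lay in 3′ UTRs in HEK293 and 95.3%, 94.3% and 93.6% in K562 cells, with a difference of 0.169 percentage points (exact two-sided permutation p = 0.8). When the 20804 peaks with the most reads among those enriched over the external background were taken from each library, the shares were 85.7% and 86.7% against 73.8%, 83.8% and 77.5%, so that the order of the lines over the external background turned (difference 7.82 percentage points, exact permutation p = 0.2).

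**Figure D1:**
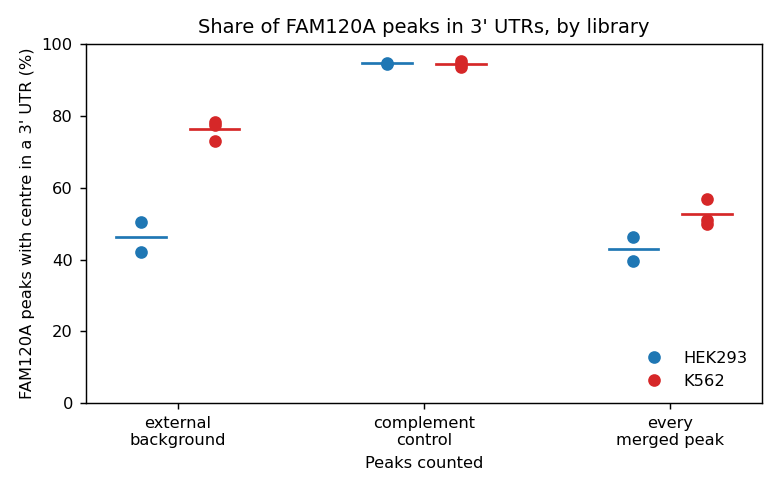
Share of FAM120A peaks with their centre in a 3′ UTR (y axis, percent) for 3 ways of counting peaks (x axis), with a point per library and a line at the mean of each cell line. The 2 HEK293 points lie at 50.5% and 42.0% over the external background, below the 3 K562 points, while over the complement control all 5 lie between 93.6% and 95.3%.

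Over the external background, a 3′ UTR was called bound in a library if it held at least 1 enriched peak centre. FAM120A bound 5563 and 5606 3′ UTRs in HEK293 and 3703, 4262 and 3484 in K562 cells, and 7410 in at least 1 of the 5 libraries. Of these, 4739 were bound in both HEK293 libraries, 3028 in all K562 libraries and 2300 in all 5, which is 48.5% of the first set and 76.0% of the second. A further 1609 were bound in both HEK293 libraries and no K562 library, and 460 in all K562 libraries and no HEK293 library. These sets were formed from the readout, so that their sizes are a description.

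The overlap coefficient, which is the shared 3′ UTRs over the shorter list, had a mean of 0.904 for libraries of the same line and 0.766 for libraries of different lines. The difference of 0.138 had an exact one-sided permutation p of 0.1, the smallest possible here. Over the complement control the means were 0.850 and 0.835, with a difference of 0.0153 (exact permutation p = 0.2). The other RBPs had lower overlaps in these pools, 0.807 within and 0.633 between lines for IGF2BP2, 0.729 and 0.542 for LIN28B and 0.709 and 0.444 for RBFOX2. In every pool the other RBPs also bound fewer 3′ UTRs than FAM120A. In HEK293 the external background held at most 1 read at 71.3% and 74.0% of the RBFOX2 peaks, against 17.5% and 22.9% for FAM120A. The part of either in the overlaps was not tested. IGF2BP2 bound 571 3′ UTRs in all 5 libraries, 1509 in HEK293 alone and 234 in K562 cells alone.

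Over the complement control 1331 3′ UTRs were bound in all 5 libraries, 913 in HEK293 alone and 64 in K562 cells alone. The HEK293 set was thus the larger under both definitions, although the number of bound 3′ UTRs per library was also larger in HEK293. With an equal number of peaks from each library the sets were 644 and 581, close to even.

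**Figure D2:**
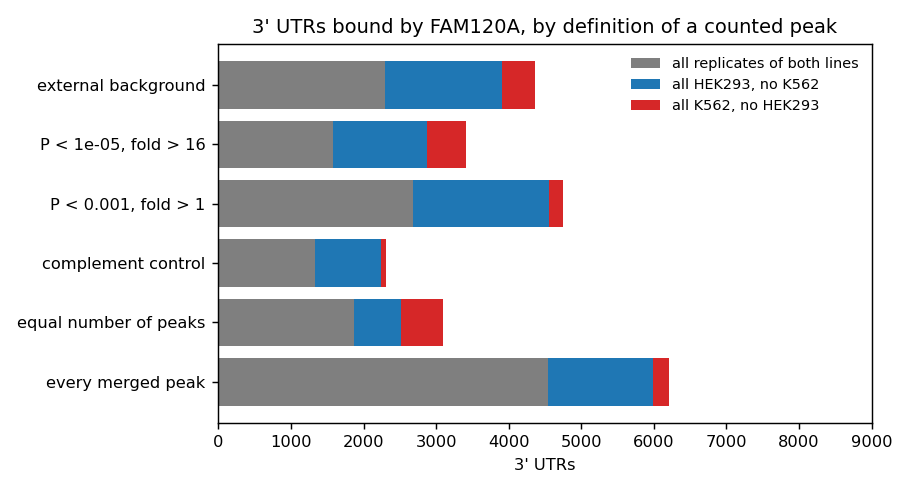
Number of 3′ UTRs (x axis) bound by FAM120A in all 5 libraries (grey), in both HEK293 libraries and no K562 library (blue) or in all K562 libraries and no HEK293 library (red), for 6 definitions of a counted peak (y axis). Over the external background the sets hold 2300, 1609 and 460 3′ UTRs, and with an equal number of peaks per library 1866, 644 and 581.

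The 3 sets differed in the reads that the other RBPs left on the same mRNAs. At least 20 reads of the other 9 RBPs on exons of the gene were found for 91.4% and 96.3% of the shared set in the HEK293 pools and for 62.7%, 80.5% and 82.6% in the K562 pools. For the HEK293 set these shares were 66.7% and 78.6% against 11.0%, 15.5% and 16.7%, so that most of its mRNAs had fewer than 20 exon reads of the other 9 RBPs in each K562 pool. The limit was not scaled to depth. The K562 pools held 121424 to 266194 reads of these RBPs in 3′ UTR peaks, against 416817 and 568590 in HEK293. In total 153 of the 1609 genes of the HEK293 set, or 9.51%, reached 20 exon reads in every pool, against 1371 of 2300 in the shared set and 263 of 460 in the K562 set.

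The K562 set had mostly been seen in HEK293 cells without passing the limits. A merged FAM120A peak of any enrichment lay in 76.7% and 77.8% of its 3′ UTRs in the HEK293 libraries, and a merged K562 peak lay in 26.5%, 43.6% and 25.5% of the HEK293 set. Median FAM120A levels of the K562 set were 21.5 and 16.4 RPM in HEK293 and 65.0, 57.2 and 70.4 RPM in K562 cells, where RPM is relative to all FAM120A reads in 3′ UTR peaks. For the HEK293 set they were 19.4 and 17.3 RPM against 0 in each K562 library, and for the shared set 131 to 139 RPM in all 5. Over the complement control, 26 of the 460 3′ UTRs of the K562 set were bound in all 5 libraries, 34 remained in K562 cells alone and 4 were bound in HEK293 alone.

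The shared and the HEK293 sets had 3′ UTRs of median 3071.5 and 3133 nt, against 1501.5 nt for the K562 set. The K562 set had a median of 24.1% A and 27.5% T, and the shared set 29.1% A and 32.9% T. These lengths and bases follow from which peaks passed the limits and are given as a description.

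On the 2300 shared 3′ UTRs, FAM120A had a mean of 7.54 and 7.44 enriched peaks in HEK293 and 5.51, 8.49 and 5.62 in K562 cells. The K562 libraries lay on both sides of HEK293, and the difference of 0.948 peaks had an exact two-sided permutation p of 0.6. K562 replicate 2, which had the most reads of that line, also had the most peaks per 3′ UTR. A single enriched peak was found in 31.8% and 29.6% of the bound 3′ UTRs in HEK293 and in 28.7%, 21.5% and 27.2% in K562 cells. The 3′ UTR with the most peaks was that of LCOR with 44 in HEK293 replicate 1, PCDH9 with 50 in HEK293 replicate 2, DDX6 with 43 in K562 replicate 1, CBX5 with 56 in K562 replicate 2 and SCD with 51 in K562 replicate 3.

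The highest peak of a shared 3′ UTR overlapped between the HEK293 libraries in 52.8% of cases and between K562 libraries in 54.3% to 59.2%. Between lines it overlapped in 47.9% to 53.5%, a range that reaches above the value within HEK293. In 507 of the 2300 3′ UTRs, or 22.0%, the highest peaks of all 5 libraries overlapped.

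Of all 3′ UTRs with FAM120A reads, 9829 in number, that of DDX6 was second by RPM per kilobase in HEK293 and first in K562 cells, with 5857 and 16324. DDX6 is a DEAD-box helicase of P bodies that takes part in decapping and in repression by microRNAs. FAM120A levels on its 3′ UTR, which spans positions 118747763 to 118754714 on the minus strand of chromosome 11 and holds 4461 nt, were 25524 and 26729 RPM in HEK293 and 80045, 79200 and 59214 RPM in K562 cells. This was a mean of 2.61% of the FAM120A reads summed over 3′ UTR peaks in HEK293 and 7.28% in K562 cells, a 2.79-fold difference with no overlap between the lines. A read that reached into several adjoining peaks was counted in each, so that these sums also depend on how finely a site was split. In HEK293 replicate 1, for example, adjoining DDX6 peaks centred at nt 2799, 2813 and 2824 held 2163, 2153 and 2153 reads.

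The other 9 RBPs moved in the same direction on DDX6. Their levels, relative to their own reads in 3′ UTRs, were 3215 and 2756 RPM in HEK293 and 7552, 9192 and 3813 RPM in K562 cells, a 2.29-fold difference. The log2 ratio of FAM120A to the other RBPs was 2.99 and 3.28 in HEK293 and 3.40, 3.11 and 3.96 in K562 cells. These values overlapped, and the difference of HEK293 minus K562 was -0.36 ± 0.31 (SE, limma adjusted p = 0.509). FAM120A thus lay above the other RBPs on DDX6 in all 5 pools, at a ratio whose difference between lines did not pass the test.

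DDX6 held 34 and 37 enriched FAM120A peaks in HEK293 and 43, 54 and 41 in K562 cells, and 32 to 52 peaks over the complement control. The peak with the most reads was centred at nt 3349 of the 3′ UTR in both HEK293 libraries and in K562 replicate 1, at nt 3348 in K562 replicate 3 and at nt 3327 in K562 replicate 2, where nt 3349 was second. It took 10.8% and 9.59% of the reads summed over DDX6 peaks in HEK293 and 9.61%, 7.95% and 12.6% in K562 cells. These peaks overlapped in all 5 libraries while the level differed. The DDX6 site printed above is centred on the short stretch that they share and is longer than it. It has no run of 5 equal bases and does not reach the peak centres at nt 3348 and 3349.

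**Figure D3:**
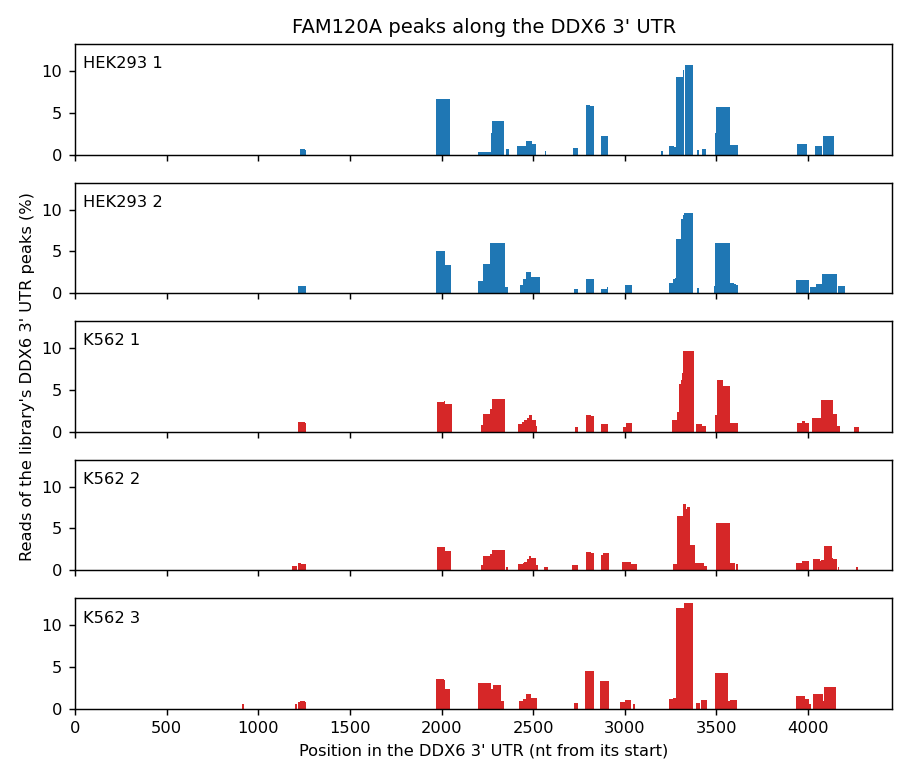
FAM120A peaks along the DDX6 3′ UTR in the 5 libraries, with the position in nt from the start of the 3′ UTR on the x axis and the share of the library's DDX6 reads in each peak, in percent, on the y axis. The highest peaks lie near nt 3349 in every library, with 7.95% to 12.6% of the reads summed over peaks.

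SCD, NUCKS1, IGF2BP1 and CALU had the next highest FAM120A levels among the 3′ UTRs bound in all 5 libraries. SCD, the desaturase that makes monounsaturated fatty acids, had 8679 and 7646 RPM in HEK293 and 16666, 13656 and 21357 RPM in K562 cells. CALU, a calcium-binding protein of the endoplasmic reticulum, had 4157 and 3673 RPM against 11391, 8427 and 8449 RPM. Both were higher in all K562 libraries, and the other RBPs were as well, so that the log2 differences of the ratio were 0.06 ± 0.32 (SE, limma adjusted p = 0.921) for SCD and -0.05 ± 0.30 (adjusted p = 0.921) for CALU.

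NUCKS1, a chromatin-associated phosphoprotein, went the other way in reads, with 13310 and 9395 RPM in HEK293 and 4512, 6791 and 5194 RPM in K562 cells. The other RBPs followed, at 6466 and 4302 against 2570, 2668 and 3531 RPM, and the log2 difference of the ratio was 0.18 ± 0.33 (adjusted p = 0.78). IGF2BP1, an RBP of the same family as IGF2BP2, had 6417 and 9676 RPM in HEK293 against 5864, 6408 and 8532 RPM in K562 cells, which overlapped.

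To set FAM120A against the amount of mRNA across all 3′ UTRs, the log2 ratio of its reads to those of the other 9 RBPs was tested with limma for each 3′ UTR with at least 20 reads of the other RBPs in every pool and at least 20 FAM120A reads in all. Of 19334 annotated 3′ UTRs, 988 were tested, since 1002 passed the first limit. Of the 2300 shared 3′ UTRs 651 were tested, of the HEK293 set 13 and of the K562 set 136, so that the test says little of mRNAs present in 1 line only. The ratio differed at an adjusted p below 0.05 for 98 of the 988 3′ UTRs, which is 9.92%. It was higher in HEK293 for 49 (4.96%) and lower for 49 (4.96%).

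The median difference over all 988 was 0.06 on the log2 scale, and the differences ran from -3.47 to 4.18 with a median SE of 0.40. The libraries of the lines did not overlap for 422 3′ UTRs, or 42.7%, including all 98 that were called. Without the control, FAM120A RPM alone differed for 451 of the 988, or 45.6%, of which 128 were higher and 323 lower in HEK293. Of the 98 called on the ratio 57 were also called on RPM alone with the same sign, and 389 were called on RPM alone and not on the ratio.

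Across the 988 3′ UTRs, the difference between lines in FAM120A RPM and that in the RPM of the other 9 RBPs had a Pearson correlation of 0.713 and a Spearman correlation of 0.682, and 760, or 76.9%, had the same sign. These are descriptions across 3′ UTRs, which are not independent and whose FAM120A and other reads come from the same pools. HMGCS1 lay at the far end, lower in HEK293 on both axes.

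**Figure D4:**
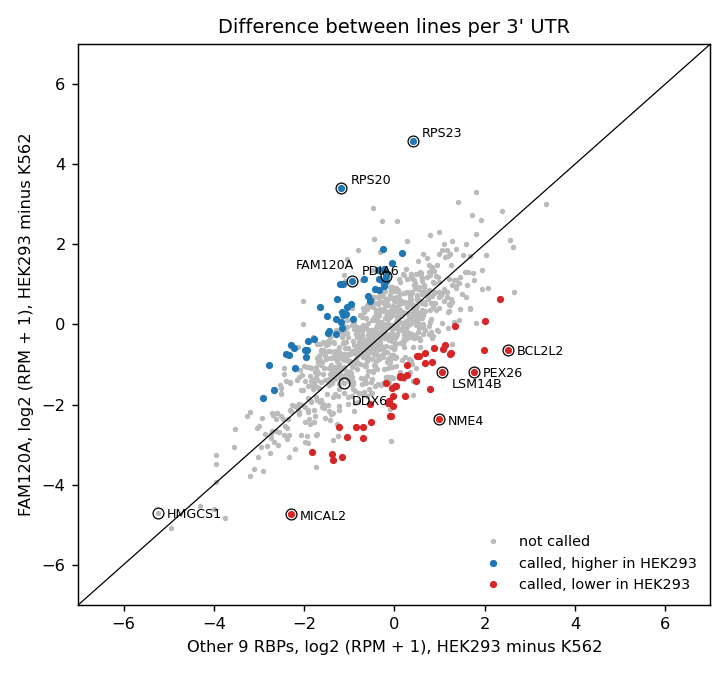
Difference between lines (HEK293 minus K562) in log2 of RPM + 1 for FAM120A (y axis) and for the other 9 RBPs (x axis), with a point for each of 988 3′ UTRs and the line of equal difference. The points follow the line (Pearson correlation 0.713), and the 49 3′ UTRs called higher (blue) and 49 called lower (red) in HEK293 lie off it, RPS23 and NME4 among the farthest.

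The control was itself uneven between lines. IGF2BP2 gave 40.1% and 42.4% of its reads in the HEK293 pools and 42.4%, 44.5% and 68.5% in the K562 pools, and RBFOX2 gave 27.7% and 27.5% against 16.2%, 15.4% and 7.01%. Where 1 RBP held most of the control on a 3′ UTR, a difference in the ratio may be that RBP's as well as FAM120A's. With each of the 9 RBPs at equal weight 10 3′ UTRs were called, 6 of which were among the 98, and with IGF2BP2 alone as control 1 was called, that of LSS at a log2 difference of -3.38.

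Among the 3′ UTRs with a higher ratio in HEK293, FAM120A's own mRNA stood with the secretory pathway enzyme PDIA6, the poly(A) polymerase PAPOLA and the ribosomal proteins RPS23 and RPS20. On the 3′ UTR of FAM120A (chromosome 9, plus strand, 3251 nt) the protein had 753 and 543 RPM in HEK293 and 265, 233 and 337 RPM in K562 cells. The other RBPs had 118 and 206 against 165, 161 and 210 RPM, which overlapped. The ratio rose in HEK293 by 1.42 ± 0.36 (SE, limma adjusted p = 0.0137), which was lost with a control from all exons of the gene (0.74, adjusted p = 0.21), with equal weights (0.98, adjusted p = 0.40) and without HEK293 replicate 1, K562 replicate 1 or K562 replicate 2.

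PDIA6, a protein disulfide isomerase of the endoplasmic reticulum, had 1487 and 1016 RPM in HEK293 and 447, 535 and 810 RPM in K562 cells on a 3′ UTR of 870 nt. Its control, of which IGF2BP2 held 60.7% to 100%, had 149 and 84.4 against 165, 215 and 278 RPM. FAM120A was higher in both HEK293 libraries than in any K562 library, and the ratio rose by 2.03 ± 0.30 (adjusted p = 0.000223). PAPOLA, which adds poly(A) tails to mRNAs in the nucleus, had 459 and 614 RPM in HEK293 against 110, 154 and 171 RPM, with overlapping control levels of 302 and 183 against 222, 268 and 364 RPM, of which 55.6% to 96.9% was IGF2BP2. Its ratio rose by 2.15 ± 0.38 (adjusted p = 0.00149), and the call was lost without HEK293 replicate 2 (adjusted p = 0.0798).

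RPS23, a protein of the small ribosomal subunit, had 213 and 545 RPM in HEK293 and 22.2, 14.2 and 7.22 RPM in K562 cells, while its control levels of 321 and 310 against 362, 188 and 195 RPM overlapped. Most of that control was IGF2BP2 in HEK293, at 54.5% and 63.1%, and PRPF8 in K562 cells, at 51.0% to 73.1%. The ratio rose by 4.14 ± 0.51 (adjusted p = 3.3e-05). The HEK293 libraries had 6 and 7 enriched peaks there and the K562 libraries none. RPS20, of the same subunit, had 34 and 8 FAM120A reads in HEK293 and no called peak in K562 cells, and its control was 88.9% to 100% PRPF8. Its fitted difference of 4.18 ± 0.96 (adjusted p = 0.00771) depends on the read added to each count. Both genes have processed pseudogenes and 3′ UTRs pooled over alternative transcripts, so that the origin of their reads is uncertain.

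ASPH, IQGAP1, MAT2A, RFK, LSM8 and NCSTN made up the rest of the 10 largest rises, at log2 differences of 1.76 to 2.21. For ASPH, an aspartyl hydroxylase, FAM120A had 548 and 682 against 329, 309 and 278 RPM, and the control was 61.2% to 88.1% RBFOX2, with overlapping levels of 451 and 397 against 1112, 1882 and 447 RPM. Without RBFOX2 in the control the ASPH difference was 0.68 (adjusted p = 0.29), and with IGF2BP2 alone it was -0.73 (adjusted p = 0.35). For IQGAP1, a scaffold of the actin cytoskeleton, LIN28B held 77.1% to 86.7% of the control in 4 pools and HEK293 replicate 2 stood apart with 273 RPM of control reads against 865 to 1766 RPM in the other 4.

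FAM120A reads alone did not separate the lines for LSM8, a subunit of the ring that binds U6 snRNA, with 91.5 and 110 against 94.1, 64.0 and 19.9 RPM, nor for NCSTN, a subunit of gamma-secretase, with 41.6 and 22.6 against 22.2, 14.2 and 36.1 RPM. For RFK, riboflavin kinase, FAM120A reads overlapped as well, with 66.5 and 71.4 RPM in HEK293 against 175, 122 and 45.1 RPM. The controls of all 3 were lower in both HEK293 pools, at 67.2 and 66.8 against 428, 334 and 259 RPM for RFK, of which 73.1% to 95.7% was IGF2BP2. MAT2A, which makes S-adenosylmethionine, had 223 and 141 RPM against 83.8, 110 and 55.9 RPM. MAT2A and NCSTN belonged to the K562 set by peaks over the external background, with 3, 9 and 2 and with 1, 1 and 1 enriched peaks in K562 cells and 0 in HEK293, although their ratio was higher in HEK293.

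The 3′ UTRs with a lower ratio in HEK293 were led by NME4, BCL2L2 and PEX26. NME4, a mitochondrial nucleoside diphosphate kinase with a 3′ UTR of 415 nt, had 52.0 and 26.6 RPM of FAM120A in HEK293 and 188, 134 and 301 RPM in K562 cells. Its control ran against this, with 1442 and 721 RPM in HEK293 and 593, 368 and 631 RPM in K562 cells, of which 73.9% to 89.9% was IGF2BP2. The ratio fell by 3.36 on the log2 scale (SE 0.50, adjusted p = 0.000223).

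PEX26, an anchor of the peroxisomal import machinery, had 248 and 227 RPM in HEK293 and 628, 594 and 419 RPM in K562 cells, with a control of 650 and 637 against 272, 257 and 97.7 RPM. FAM120A was higher and the control lower in every K562 library, and the ratio in HEK293 fell by 2.91 (SE 0.36, adjusted p = 3.3e-05). Without RBFOX2 in the control it fell by 1.87. BCL2L2, an anti-apoptotic protein of the BCL2 family, had 95.6 and 63.4 RPM against 159, 162 and 68.6 RPM, which overlapped. Its control was 1111 and 1205 RPM in HEK293, of which 86.2% and 90.9% was RBFOX2, against 264, 322 and 97.7 RPM, and its difference of -3.12 ± 0.44 (adjusted p = 0.000204) became -1.37 (adjusted p = 0.033) without RBFOX2.

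ZNF316, a zinc finger protein, RBM38, an RBP induced by p53, and THRA, a thyroid hormone receptor, differed mainly in FAM120A reads. ZNF316 had 49.9 and 28.4 RPM in HEK293 and 252, 227 and 114 RPM in K562 cells, with overlapping controls, and fell by 2.19 (SE 0.39, adjusted p = 0.00149). RBM38 had 11.1 and 4.88 RPM against 99.2, 67.7 and 83.0 RPM and fell by 2.23 (SE 0.49, adjusted p = 0.00624). THRA had 39.5 and 21.3 RPM against 157, 137 and 143 RPM and fell by 2.20 (SE 0.51, adjusted p = 0.00825), with RBFOX2 at 65.6% to 76.6% of its control. For all 3 the FAM120A levels of the lines did not overlap.

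MICAL2, a monooxygenase that oxidises actin, had 3 FAM120A reads in each HEK293 library and 53.5 to 83.0 RPM in K562 cells. Its control was 82.5% to 100% RBFOX2, and the difference of -2.73 ± 0.85 (adjusted p = 0.0442) was -0.14 (adjusted p = 0.90) without RBFOX2 and 0.53 with IGF2BP2 alone. HSP90AA1, the inducible cytosolic HSP90, had 124 and 54.1 RPM against 226, 201 and 348 RPM and fell by 2.38 (SE 0.51, adjusted p = 0.00478), in a gene with many pseudogenes.

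Leaving out 1 library at a time, 11 of the 98 calls held in all 5 fits, 2 of them higher and 9 lower in HEK293. Among the 20 largest differences these were RPS23 and PDIA6 on the higher side and NME4, BCL2L2, PEX26 and ZNF316 on the lower, and the other 14 lost the call without at least 1 library, among them MICAL2 without each of the 5. The numbers called were 65 without HEK293 replicate 1, 22 without HEK293 replicate 2, 36 without K562 replicate 1, 64 without K562 replicate 2 and 67 without K562 replicate 3. All 98 kept their direction in each of these fits. With the 9 RBPs of the control at equal weight, RPS23 and NME4 were still called, and PDIA6, BCL2L2, PEX26 and ZNF316 were not. With IGF2BP2 alone as control none of them was called.

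**Figure D5:**
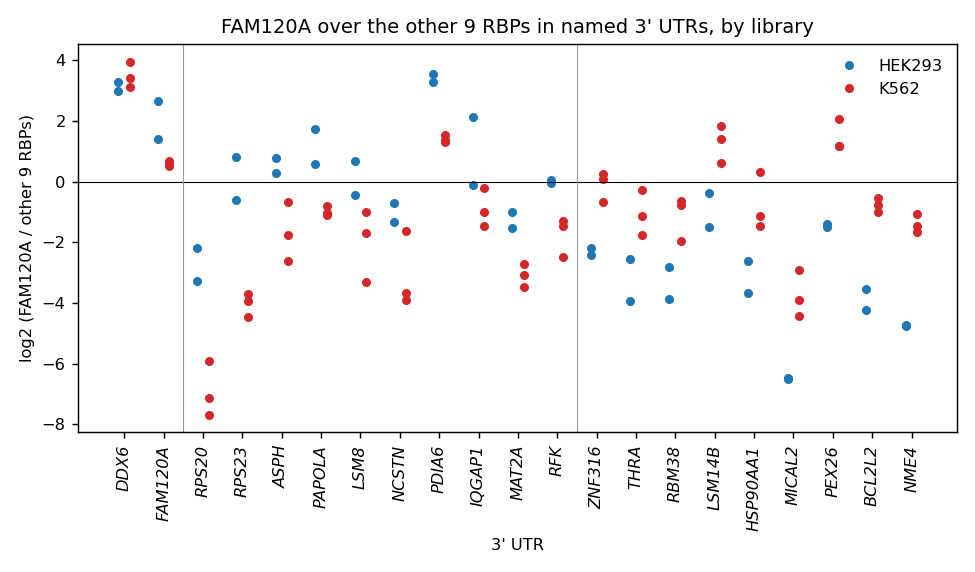
Log2 ratio of FAM120A to the other 9 RBPs (y axis), with a point per library, for DDX6, FAM120A and, among the largest called differences, 10 3′ UTRs higher and 9 lower in HEK293 (x axis). The lines overlap for DDX6, at 2.99 to 3.96, and separate for the others, with HEK293 above K562 in the middle block and below it in the right block.

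The 3′ UTRs bound in 1 line only were described further for those with at least 20 control reads in every pool. In the K562 set, the highest mean levels over all 5 libraries were on HMGCS1, GLUL, TUBB, ACTG1, MSN and ELOVL5. HMGCS1, an enzyme of cholesterol synthesis, had 222 and 197 RPM in HEK293 and 6042, 6355 and 4284 RPM in K562 cells, and the other RBPs had 81.6 and 102 against 3582, 3787 and 3088 RPM. Both were higher in K562 cells, and the ratio differed by 0.51 ± 0.32 (adjusted p = 0.322).

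GLUL, glutamine synthetase, had 637 and 327 RPM in HEK293 and 2712, 3083 and 3366 RPM in K562 cells, with a log2 difference of the ratio of 0.00 ± 0.34 (adjusted p = 0.992). MSN, moesin, which links actin to the plasma membrane, had 193 and 191 against 1822, 1566 and 2166 RPM and a difference of 0.69 ± 0.35 (adjusted p = 0.213). FAM120A reads on these mRNAs were lower in both HEK293 libraries. The ratios of GLUL overlapped, while those of HMGCS1 and MSN lay higher in both HEK293 libraries than in any K562 library without passing the test. Over the complement control HMGCS1 was bound in all 5 libraries, MSN had 4 and 5 enriched peaks in HEK293 against 1, 0 and 0, and GLUL had 3 and 2 against 1, 3 and 0.

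TUBB, a beta-tubulin, and ACTG1, gamma-actin, were in the K562 set without a higher level there. TUBB had 1699 and 1326 RPM in HEK293 and 1528, 1511 and 1936 RPM in K562 cells, and ACTG1 had 1894 and 1399 against 1059, 1005 and 1390 RPM. Neither had an enriched peak over the external background in HEK293, while over the complement control ACTG1 was bound in all 5 libraries and TUBB in HEK293 alone. ELOVL5, a fatty acid elongase, with 478 and 697 against 1025, 976 and 769 RPM, was also bound in all 5 over the complement control. Tubulin and actin mRNAs have close copies and pseudogenes, so that their counts are uncertain.

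In the HEK293 set, by the mean level over all 5 libraries, RPS23 was followed by VAMP2, DIDO1, PRPF4B, ATP11A and LUC7L3, at levels of under 100 RPM. VAMP2, a SNARE protein of synaptic vesicles, had 83.2 and 33.3 RPM in HEK293 and 5.13, 24.0 and 12.6 RPM in K562 cells, and DIDO1 had 56.1 and 31.9 against 13.7, 6.15 and 5.41 RPM. For PRPF4B, a kinase of the spliceosome, levels overlapped, with 15.2 and 8.87 against 32.5, 3.08 and 41.5 RPM. The ratio did not pass the test for any of the other five, with adjusted p from 0.211 to 0.636.

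Gene lists were set beside the 9829 3′ UTRs with FAM120A reads, of which 2300, or 23.4%, were bound in all 5 libraries, and beside the 9.92% called of those tested. Both shares describe all mRNAs, and no list was tested against them. Of 12 factors of decapping and P bodies, 6 were bound in all 5 libraries, DDX6, DCP1A, DCP2, LSM14B, PATL1 and XRN1, and 4 of these, DDX6, DCP1A, DCP2 and LSM14B, also over the complement control. Of the 5 tested, LSM14B was called, with 1 of 5 lower and none higher in HEK293, and the median log2 difference was -0.29 against 0.06 over all 3′ UTRs. LSM14B, a component of repressed mRNPs, had 296 and 236 RPM in HEK293 and 753, 626 and 466 RPM in K562 cells. Its ratio fell by 2.23 (SE 0.40, adjusted p = 0.00149), with RBFOX2 at 76.5% to 91.9% of its control, and by 1.69 without RBFOX2. DCP2, the decapping enzyme, had 323 and 296 RPM against 968, 1058 and 1070 RPM, with a log2 difference of the ratio of -0.24 (adjusted p = 0.715).

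Of 18 deadenylation factors, 8 were bound in all 5 libraries (23.4% over all 3′ UTRs), among them the catalytic subunits CNOT6, CNOT6L and CNOT7 and the scaffold CNOT1. CNOT7 had 628 and 618 RPM in HEK293 and 330, 414 and 384 RPM in K562 cells, and CNOT6L had 292 and 425 against 431, 589 and 305 RPM. CNOT4 and TOB1 were in the HEK293 set, and BTG2, CNOT8 and TOB2 in the K562 set. Over the complement control none of these 3 was bound in K562 cells alone, TOB2 had 2 enriched peaks in each HEK293 library, and the RPM of BTG2 overlapped, at 67.2 and 35.9 against 56.5, 45.5 and 36.1. Only CNOT3 had enough control reads to be tested, with a log2 difference of -2.19 (adjusted p = 0.283) on 0 to 7.22 RPM of FAM120A.

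Of 13 factors of the microRNA pathway, 5 were bound in all 5 libraries (23.4% over all 3′ UTRs), the Argonautes AGO1 and AGO2, the nuclease DICER1, LIMD1 and the scaffold TNRC6B. AGO1 had 179 and 247 RPM in HEK293 and 566, 520 and 603 RPM in K562 cells, and its ratio fell by 1.89 (SE 0.40, adjusted p = 0.00401). Its control was 81.0% and 77.9% RBFOX2 in HEK293, and without RBFOX2 the difference was -0.76 (adjusted p = 0.28). The call was also lost without HEK293 replicate 1 or K562 replicate 1 (adjusted p up to 0.0546). AGO2 had 1121 and 1175 RPM against 1651, 1658 and 1687 RPM, with a log2 difference of the ratio of -0.33 (adjusted p = 0.585). Of the 4 tested, AGO1 was thus the 1 called lower (4.96% over all), at a list median of -1.11 against 0.06 over all 3′ UTRs. No member lay near that median. DGCR8 was at -2.12 (limma adjusted p = 0.262) on 0 to 45.1 RPM of FAM120A, and LIMD1 at -0.32 (adjusted p = 0.696). DICER1, not tested for want of control reads, had 373 and 370 against 95.8, 105 and 130 RPM. The other RBPs moved in the same direction on DICER1, with 324 and 204 against 0, 111 and 56.3 RPM.

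Of 16 genes of Src family kinase and PI3K signalling, 6 were bound in all 5 libraries (23.4% over all 3′ UTRs), GSK3B, LYN, PIK3CA, PIK3CB, RICTOR and YES1. YES1, a Src family kinase, had 321 and 558 RPM in HEK293 and 743, 905 and 522 RPM in K562 cells, and its control 86.4 and 93.2 against 511, 452 and 466 RPM. FAM120A reads overlapped and the control did not, and the ratio rose in HEK293 by 1.65 ± 0.34 (adjusted p = 0.00401). The call was lost without HEK293 replicate 2 or K562 replicate 1 (adjusted p up to 0.107). YES1 was the 1 of 3 tested that was called (9.92% over all). LYN, a kinase of blood cells, had 16.6 and 12.4 against 139, 193 and 202 RPM. The other RBPs moved in the same direction on LYN, with 19.2 and 5.28 against 124, 203 and 192 RPM, and its ratio was not tested.

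Of the mRNAs of the 10 profiled RBPs, FAM120A bound those of DDX3X, FAM120A, IGF2BP2, LIN28B and PUM2 in all 5 libraries (23.4% over all 3′ UTRs). Of the 4 tested its own was called (9.92% over all), at a list median of 0.26 against 0.06 over all 3′ UTRs. DDX3X, a helicase of translation initiation, had peak counts that differed between the backgrounds, and the cause was not tested. It had 1 enriched peak in each HEK293 library and 13, 14 and 12 in K562 cells over the external background, and 8 and 8 against 9, 11 and 7 over the complement control. Of the paralogues of FAM120A, FAM120C was bound in HEK293 alone, with 27.7 and 20.9 RPM and no called peak in K562 cells, and FAM120B, with at most 15.4 RPM, was bound in no library. Over the complement control FAM120B had 2 enriched peaks in HEK293 replicate 1 and none in the other libraries.

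Of 14 known targets of let-7, the microRNA family whose maturation LIN28B blocks, 11 were bound in all 5 libraries (23.4% over all 3′ UTRs), among them IGF2BP1, IGF2BP3, NRAS and CDK6. None of the 7 tested was called (9.92% over all), and 1 had an unadjusted p below 0.05. Their median log2 difference was 0.15 against 0.06 over all 3′ UTRs, with IGF2BP3 nearest at 1.12 (limma adjusted p = 0.0596). HMGA2, a chromatin protein of embryonic cells, had 500 and 263 RPM in HEK293 and no called FAM120A peak in K562 cells, and the other RBPs had 1300 and 742 RPM against none. TRIM71, with 90.1 and 89.6 RPM in HEK293, was likewise without a called peak of FAM120A in K562 cells.

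Base runs around enriched 3′ UTR peaks were compared between FAM120A and the other RBPs of each pool, with runs of 5 equal bases looked for on the transcript strand within 25 nt of the peak centre. In HEK293, AAAAA was found at 15.2% and 19.7% of FAM120A peaks, a mean of 17.4% ± 3.16 (SD, n = 2), and the mean of the other 9 RBPs was 11.3%, from 6.83% for the lowest to 14.5% for the highest RBP (exact one-sided permutation of RBP labels within pools, p = 0.01, adjusted p = 0.04 over 4 runs). TTTTT was found at 16.7% and 10.8%, a mean of 13.8% ± 4.17 (SD), against 8.81% for the others, from 6.43% to 13.3% (exact permutation p = 0.02, adjusted p = 0.04). Both passed the test, and the smallest p that 2 pools of 10 RBPs allow is 0.01. PUM2 was close to FAM120A for TTTTT, at 16.8% and 9.86%.

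In K562 cells the same runs were higher in FAM120A than in the mean of the others and did not pass. AAAAA was found at 18.9%, 13.9% and 13.0% of peaks, against 11.4% for the others (exact permutation p = 0.055, adjusted p = 0.11). TTTTT was found at 9.35%, 13.1% and 15.4%, against 9.57% (exact permutation p = 0.039, adjusted p = 0.11). FAM120A means over the K562 pools were 15.3% for AAAAA and 12.6% for TTTTT. The other RBPs ran from 5.99% to 18.9% and from 7.31% to 14.2%, with PUM2 the highest for both runs. PUM2 lay above FAM120A for AAAAA in every K562 pool, and for TTTTT in replicates 1 and 2 but not 3. In K562 replicate 1, ZC3H11A for AAAAA and EIF3G for TTTTT also lay above FAM120A. GGGGG was found at 3.73% of FAM120A peaks in HEK293 against 7.65% for the others and at 5.87% against 8.62% in K562 cells, and CCCCC at 5.67% against 7.47% and at 8.10% against 10.6%. The lines were not tested against each other for these runs.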

How the data were processed

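In 10plex ABC, 10 RBPs were profiled per pool in HEK293 (2 pools) and K562 cells (3 pools), and samples were grouped by the RBP, line and replicate in their labels. The authors trimmed reads (cutadapt 2.8), split them by barcode, set aside repeats, aligned the rest with STAR 2.7.6 to GRCh38 and, after removal of PCR duplicates, ran CLIPper on each library, without pooling replicates. Each peak was deposited with a p-value from CLIPper and a display score, and for merged peaks the −log10 P, capped at 400, and the log2 fold of the reads over an external background. Values over the complement control were deposited as a chi-squared statistic, or as a −log10 P and log2 fold for K562 replicate 3, which alone kept peaks in repeats. No reads outside peaks were used, and other columns of the authors hold peak names and regions.

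Reads per peak came from peak names or were recovered from the log2 fold. The ratio was whole for 99.7% to 100% of FAM120A peaks, and the P settled the reads of 84.0% to 99.7%. Where it did not, reads were settled from the control values. On test peaks below the cap of the P, these gave the same reads as the P for 93.8%, 93.8% and 97.6% in HEK293 replicates 1 and 2 and K562 replicate 2. Peaks at the cap were not part of that check. They held 35.9% and 49.9% of the FAM120A reads as first recovered in HEK293 and 13.1% in K562 replicate 2. The reads of the strongest sites are thus less certain in HEK293 than in K562 cells. Peaks were assigned by their centre to GENCODE release 44 (the authors used 35), where a 3′ UTR is all bases annotated so in any transcript of 1 gene and neither coding nor shared with another gene. RPM, reads per 1000000, is relative to the reads in 3′ UTR peaks. Reads were summed over peaks, so that a read reaching into several adjoining peaks was counted in each.

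The log2 ratio of FAM120A to the other 9 RBPs, with 1 read added to each, was tested with limma 3.58.1 (eBayes with trend, R 4.3.3) and Benjamini-Hochberg adjustment over all 988 3′ UTRs at 0.05. On data made from these means with 200 changed 3′ UTRs, 0.66% of unchanged, 35.8% of 2-fold and 96.2% of 4-fold changes were called. Those data had the same spread for every 3′ UTR and kept the control reads as observed. Fewer changes may thus be called among real 3′ UTRs with a larger spread. Single values were tested with exact permutations (Python 3.11.15, scipy 1.17.1). The named 3′ UTRs were DDX6 and FAM120A, the 10 largest called differences in each direction without overlap between lines, the 6 with the highest level in each 1-line set that had 20 control reads in every pool, the 5 highest bound in all libraries, and members of gene lists that passed the test. Other list members, markers and LSS, LCOR, PCDH9 and CBX5 were named after their values were seen, and a few 3′ UTRs that these rules name are not reported here. The comparison, the lists and their members were chosen with earlier results of these data known. Alternatives were other limits, filters, pseudocounts, controls and windows, and each library left out. Reads in peaks of FAM120A ran from 823520 to 3105021 per library, and those of the other 9 RBPs in 3′ UTR peaks from 121424 to 568590 per pool, which sets the precision of the ratio.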

Additional observations from a re-analysis of the deposited data

How the results depend on the processing

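The number of called 3′ UTRs depended on the control and the filter. It was 98 of 988, and 10 with equal weights, 1 with IGF2BP2 alone (263 had an unadjusted p below 0.05 in the first fit and 173 in this one), 451 without a control, 3 of 2407 (PEX26, RPS23 and SOCS7) with at least 5 control reads, 29 of 143 with at least 100, and 22 to 67 when 1 library was left out. It was 77 without RBFOX2, 91 and 110 with pseudocounts of 0.5 and 5, 84 after centring on the median and 82 with touching peaks counted once. Chosen after seeing the data, a control from all exons gave 76, the same with its own filter 75 of 2850, and the smallest reads allowed at the cap 97. All 98 kept their direction with RBFOX2 left out and 94 with IGF2BP2 alone, where ASPH turned to -0.73 and MICAL2 to 0.53. Without a control 79 of the 98 kept their direction, and of the 62 called in both fits 5 had the opposite sign. There RFK turned to -0.53, HMGCS1 to -4.71, GLUL to -2.74, MSN to -3.25, ELOVL5 to -0.67, SCD to -1.06 and YES1 to -0.74. Of 674 values of the 39 named 3′ UTRs that were tested, 510 kept direction and side of the threshold, 142 lost the call, 13 gained one and 9 turned.

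The 3′ UTRs bound in all 5 libraries were 4539 with every merged peak and 1331 over the complement control, and 2321 to 2584 with 1 library left out. Those in HEK293 alone were 913 over the complement control and 644 with equal numbers of peaks, and 1653 to 2239 with 1 library left out. Those in K562 cells alone were 191 at any fold above 1, 219 with every merged peak and 64 over the complement control, and 485 to 611 with 1 library left out. The difference in the share of peaks in 3′ UTRs turned to 0.169 over the complement control and to 7.82 with equal numbers. Excess base runs of FAM120A in HEK293 no longer passed over every merged peak (AAAAA 4.09 percentage points, TTTTT 3.70), nor TTTTT within 10 nt (0.591). A single pool of 10 RBPs is too few for the permutation test to pass. The excess in single HEK293 pools was 6.11 to 6.26 percentage points for AAAAA and 3.77 to 6.16 for TTTTT. The causes were not tested. No paired analysis was possible because both HEK293 pools carry replicate number 1 in their titles, so that the lines share fewer than 2 numbers. Depth limits the test to 988 of 9829 3′ UTRs with FAM120A reads, and reads without a called peak were not seen.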
